A study of Mus musculus with 2 samples.

Results

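Long noncoding RNAs were examined in dorsal root ganglion (DRG) neuron preparations, as 9 genes chosen by symbol: Malat1, Neat1, Meg3, Rian, Mirg, Miat, Snhg11, Gas5 and Pvt1. Every row whose gene symbol equalled one of these names was taken, which gave 13 transcript rows of the 35034 rows and 9 genes of the 24411 genes. Of the 13 rows, 12 carry noncoding RefSeq identifiers (NR_), and 1, the only row of Snhg11, carries a coding one (NM_175692). Values are TPM, a unit of abundance that corrects read numbers for transcript length and gives each library the same total, and the TPM of a gene is the sum over its rows.

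DRGs hold the cell bodies of the peripheral sensory neurons, and were collected from the thoracic and lumbar regions of C57BL/6 mice, named C57BL/6J in the methods. One pool of 10 mice was injected with alum, an adjuvant, and the other pool of 10 mice with alum + KLH (keyhole limpet hemocyanin, a protein antigen), both on day 0 and day 14, and DRGs were taken on day 28. The label of the first pool also calls it naïve. It is treated here as alum-injected, as in the methods of the study. In both pools the ganglia were digested, neurons were enriched on an albumin cushion, and B lymphocytes were removed with beads before RNA was isolated. RNA-seq was used to describe the transcriptome of the preparation, and each pool is 1 library. The pools are called the alum pool and the KLH pool from here on, and paired values are given in this order unless stated otherwise. There are no replicates, so no difference between the pools has an error or a test.

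Long noncoding RNAs are transcripts that act without being translated, and many of them stay in the nucleus. Malat1 lies in nuclear speckles, where splicing factors gather, and the long transcript of Neat1 is the scaffold of the paraspeckle, another nuclear body. Meg3, Rian and Mirg lie one after the other in the imprinted Dlk1-Dio3 domain and are transcribed from the maternal chromosome, and Rian and Mirg carry many small nucleolar RNAs (snoRNAs) and microRNAs. Miat, also called Gomafu, is a nuclear RNA of neurons that binds splicing factors. Gas5 and Snhg11 are snoRNA host genes, and Pvt1 is the neighbour of the Myc proto-oncogene.

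The preparations expressed 8 of the 9 genes above 3 TPM, the detection threshold of the study, in both pools. Among all 24411 genes, 11454 in the alum pool and 11302 in the KLH pool were above it. The levels fell into a high group of 3 genes (Snhg11, Malat1 and Rian), a middle group and one gene, Mirg, below the threshold in both pools. The 9 genes together summed to 2860.4 TPM in the first pool and 3214.1 TPM with KLH, or 0.286% and 0.321% of each library. Malat1, Rian and Snhg11 made up 79.6% and 82.2% of these sums. The median of the 9 genes was 117.2 and 107.5 TPM, while that of the 11648 expressed genes, those above 3 TPM in either pool, was 24.2 and 23.5 TPM.

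**Figure D1:**
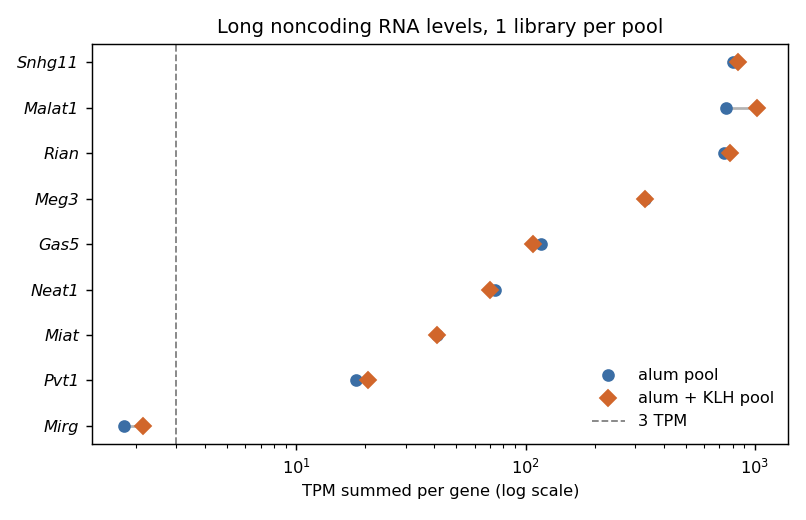
TPM summed per gene (log axis) for the 9 long noncoding RNA genes in the alum pool (circles) and the KLH pool (diamonds), 1 library each, with 3 TPM as a dashed line. Symbols of the same gene lie close together except for Malat1 (746.9 and 1018.4 TPM), and Mirg is left of the line in both pools.

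In the plot of levels by gene, the order from high to low in the alum pool was Snhg11, Malat1, Rian, Meg3, Gas5, Neat1, Miat, Pvt1 and Mirg. The order in the KLH pool was the same except that Malat1 stood above Snhg11. With no replicates it cannot be said which neighbours in this order differ beyond an error, and the first 3 genes lay between 730.8 and 799.7 TPM in the alum pool. The preparation also contained glial RNA. Summed over the markers fixed for each cell type, 8 pan-neuronal genes had 7042.0 and 7168.2 TPM, 8 Schwann cell genes 2174.1 and 2134.3 TPM, and 6 satellite glia genes 1519.3 and 1403.1 TPM. The 6 macrophage markers were all below 3 TPM, and of the 5 endothelial markers only Cdh5 was above it (3.79 and 3.15 TPM), with Cldn5 listed at 0 in the KLH pool. The long noncoding RNAs therefore cannot be assigned to neurons alone, and fewer cells of a type cannot be told apart from less RNA per cell.

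No gene of the 9 was 1.5-fold apart between the pools in either direction. Fold changes were read on the log2(TPM + 1) scale, which understates the change of low genes. Among all 11648 expressed genes, 1.00% were higher by 1.5-fold or more in the KLH pool and 1.55% were lower by as much, and the shares past 2-fold were 0.695% for higher and 0.944% for lower. Against shares this low, a count of 0 of 9 is no result about these genes. Of the 8 genes above 3 TPM, 4 had a log2 ratio above 0 and 4 below 0, with a median of 0.04 (-0.04 relative to Hprt) and a range from -0.12 to 0.45. Over all genes the median was -0.02, and 43.6% were above 0.

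Malat1 had the largest difference of the 9 genes. Its level was 746.9 TPM with alum and 1018.4 TPM with alum + KLH, a log2 ratio of 0.45 or 1.36-fold. The SD of the ratio over the 500 genes closest to Malat1 in mean level was 0.16, and 5 of these 500 genes (1% of them) were at least as far from 0. For the other 8 genes the ratio lay within the SD of their own 500 neighbours. This spread is across genes of 2 libraries and is no replicate error. Among all genes Malat1 held rank 182 in the alum pool and rank 103 in the KLH pool, where rank 1 is the highest. In the alum pool it stood between Syt4, a synaptotagmin of secretory vesicles, at 747.1 TPM and Prkar2b, a regulatory subunit of protein kinase A, at 740.5 TPM.

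The libraries also differed in a few very abundant rows. Rn45s, the ribosomal RNA precursor, was at 658.2 and 82.0 TPM, Mir6236 was at 1412.6 and 278.6 TPM, and Bc1, a short neuronal RNA made by RNA polymerase III, was at 526.4 and 218.3 TPM. The snoRNA row Snord64 went the other way, at 2661.2 and 4891.4 TPM. Without Rn45s, Mir6236, Bc1 and all small RNA rows, Snord64 among them, and with both libraries rescaled, the log2 ratio of Malat1 was again 0.45. This value could hardly have changed. The small RNA rows held only 1.59% and 1.83% of TPM, Rn45s and Bc1 add little, and rescaling shifts all remaining genes almost alike. Whether the Malat1 difference goes with the differences in these rows was therefore not tested.

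**Figure D2:**
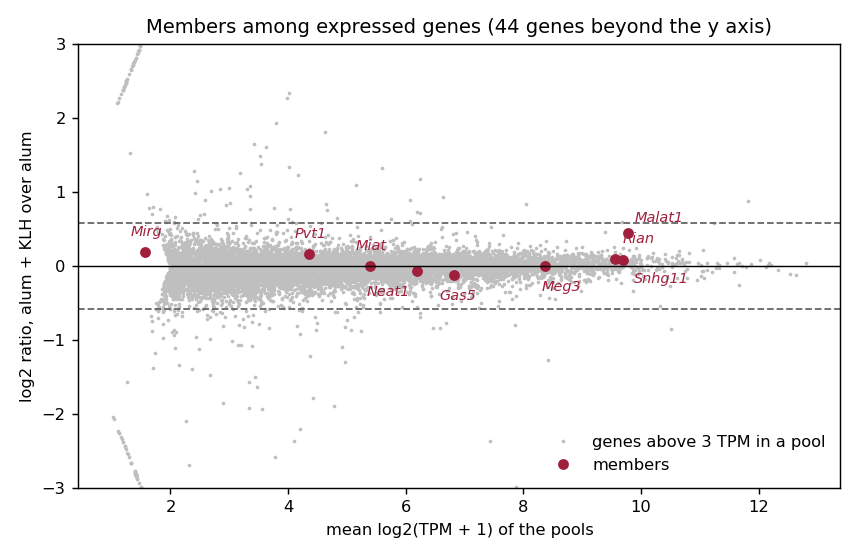
Log2 ratio of alum + KLH over alum against the mean log2(TPM + 1) of both pools, for the expressed genes (grey) and the 9 long noncoding RNA genes (red), with dashed lines at 1.5-fold. Malat1 (0.45) is the highest of the 9 and stays under the dashed line, and 44 genes lie beyond the y axis.

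As the plot of ratio against level shows, Mirg lies at the left edge and Malat1, Rian and Snhg11 at the right, where the spread is narrow. The grey points are only genes above 3 TPM in either pool, which Mirg is not. At its level this filter keeps only genes far apart between the pools, so the wide spread of grey points there describes the filter. The 500 neighbours were drawn from all 24411 genes instead. Their SD was 0.59 at the level of Mirg and 0.11 at that of Miat.

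Malat1 and Neat1 are neighbours on mouse chromosome 19, on the minus strand. Malat1 covers chr19:5795690-5802672 and Neat1 chr19:5824708-5845478 (GENCODE M21, GRCm38), with 22.0 kb between them. RNase P cuts the nascent Malat1 transcript just before a tRNA-like RNA named mascRNA, and the long Neat1 transcript in the same manner, so that these ends carry no poly(A) tail but an A-rich tract that folds with U-rich stretches into a triple helix. The short Neat1 transcript has an ordinary polyadenylated end. The last 80 bases of each are shown because they tell the processed ends from the polyadenylated one. The capitals mark the 11 bases shared by both processed ends, and in the short Neat1 transcript the poly(A) signal AATAAA, which starts 20 bases before the end. The Malat1 sequence stops before mascRNA as RefSeq places it (chr19:5795982-5796061), and the Neat1 ends are chr19:5824708-5824787 and chr19:5842307-5842386, all on the minus strand of GRCm38 and read from GENCODE M21 transcripts.
Malat1 before mascRNA: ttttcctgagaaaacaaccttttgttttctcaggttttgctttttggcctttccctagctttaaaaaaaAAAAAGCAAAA
Neat1 long transcript: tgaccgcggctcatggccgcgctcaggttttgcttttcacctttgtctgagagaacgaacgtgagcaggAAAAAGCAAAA
Neat1 short transcript: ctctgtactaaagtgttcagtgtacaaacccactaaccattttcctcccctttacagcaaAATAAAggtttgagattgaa

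The Neat1 signal was almost all assigned to the short transcript. Row NR_003513, the short form of 3004 bases, had 73.1 and 69.8 TPM in the alum and the KLH pool, and NR_131212, the long form of 20771 bases, had 0.438 and 0.531 TPM. The long row thus held 0.596% and 0.755% of the TPM of the gene. Since TPM divides by length, its share of TPM multiplied by length was higher, at 3.98% and 4.997%. These shares rest on how reads are divided. Of the 31-base words of the short row, 99.0% also occur in the long row and 29 are its own, whereas the long row has 17720 words of its own, so a low value of the long row means that few reads were assigned to its stretch beyond the short form. The library kit selects polyadenylated RNA, and the part of this selection in the low value was not tested.

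Summed over both rows, Neat1 was at 73.5 and 70.3 TPM, a log2 ratio of -0.06 beside an SD of 0.15 over its neighbours. The Malat1 level was 10.2 times that of Neat1 in the alum pool and 14.5 times in the KLH pool. The processed Malat1 end carries no poly(A) tail, unlike that of the short Neat1 transcript. The part of the poly(A) selection in these values, and in the Malat1 difference between the pools, was not tested.

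The genes for proteins of both nuclear bodies were expressed in both pools, where 11454 and 11302 of all 24411 genes were above 3 TPM. All 15 nuclear speckle genes on the list were above 3 TPM, 7 with a ratio above 0 and 8 below, with a median log2 ratio of -0.04. The highest were the SR splicing factors Srsf5 (428.3 and 414.1 TPM), Srsf3 (280.8 and 302.3 TPM) and Srsf2 (235.7 and 242.3 TPM). Srsf1 had the highest ratio of the list at 0.13 and Ddx39b, an RNA helicase of mRNA export, the lowest at -0.31. All 15 paraspeckle genes were above 3 TPM as well, 9 with a ratio above 0 and 6 below, and their median was 0.02. Hnrnpk (870.1 and 873.3 TPM), Matr3 (407.6 and 419.7 TPM) and Nono (187.0 and 174.8 TPM), all RNA-binding proteins, were the highest of them. The ratio ran from -0.24 for Smarca4, a chromatin remodeller, to 0.20 for Cpsf6, a cleavage and polyadenylation factor. No gene of either list was 1.5-fold apart, against the background shares of 1.00% and 1.55% given above.

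**Figure D3:**
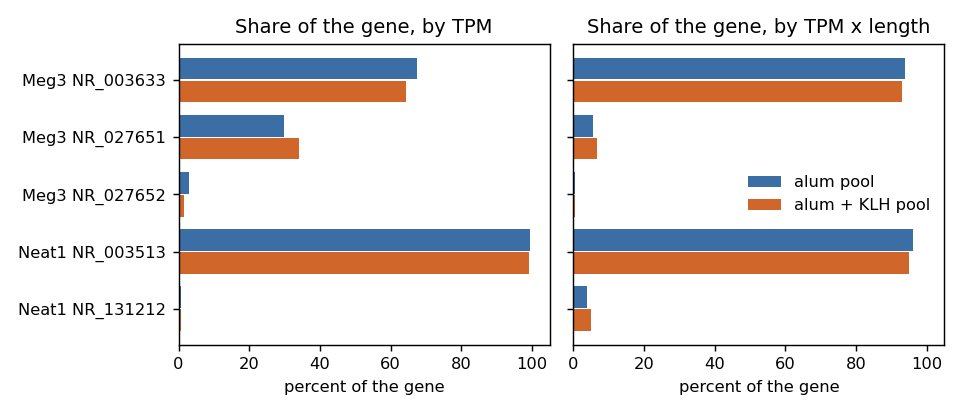
Percent of the gene held by each Meg3 and Neat1 transcript row, by TPM (left) and by TPM multiplied by transcript length (right), in the alum pool (blue) and the KLH pool (orange). NR_003633 holds 67.4% and 64.3% of Meg3 by TPM and 93.8% and 93.0% by TPM multiplied by length, and NR_003513 holds nearly all of Neat1 on both scales.

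Meg3, Rian and Mirg follow one another on the plus strand of chromosome 12, at chr12:109541001-109571726, chr12:109603940-109661716 and chr12:109729764-109749460. From the start of Meg3 to the end of Mirg is 208.5 kb, with gaps of 32.2 kb and 68.0 kb between the genes. Their levels were far apart. Rian was the highest, at 730.8 and 777.0 TPM, a log2 ratio of 0.09. Meg3 followed at 331.0 and 330.8 TPM, a ratio of -0.00073, and 498 of its 500 neighbours in level were at least as far from 0. Mirg was at 1.77 and 2.15 TPM, a ratio of 0.19 beside an SD of 0.59. The Rian level was 2.21 and 2.35 times that of Meg3, and 413 and 361 times that of Mirg, in the alum and the KLH pool.

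The order of these levels by TPM is therefore not that of the genes along the chromosome, since the middle gene was the highest in both pools. The row of Rian was not paired with a GENCODE M21 transcript, so the order by TPM multiplied by length was not computed. In the alum pool Rian stood between Sucla2, a subunit of succinate-CoA ligase, and Vps35, a retromer subunit, and it exceeded 99.2% of all genes. Meg3 exceeded 97.6% of all genes and Mirg 48.3%. The protein-coding genes of the same domain were all below 3 TPM in both pools. Rtl1, a retrotransposon-derived gene expressed from the paternal chromosome, was at 0.470 and 0.547 TPM, Begain, a synaptic scaffold gene, at 0.3995 and 0.605 TPM, and Dlk1, a Notch ligand family gene, at 0.108 and 0.0662 TPM. Dio3, a thyroid hormone deiodinase, was listed at 0 in both.

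Meg3 has 3 rows. NR_003633, a transcript of 14548 bases and 5 exons, had 223.2 and 212.8 TPM. NR_027651, of 1988 bases and 9 exons, had 98.4 and 112.7 TPM, and NR_027652, of 1896 bases and 10 exons, had 9.40 and 5.33 TPM. The long row held 67.4% and 64.3% of the TPM of the gene and 93.8% and 93.0% by TPM multiplied by length, as in the plot of row shares. The ratios of the rows were -0.07, 0.19 and -0.72, while that of the summed gene was -0.00073. The shorter rows share most of their sequence with other rows of Meg3: 98.5% of the 31-base words of NR_027651 occur in another row, leaving 30 of its own, and 88.5% of those of NR_027652, leaving 215. The long row has 13266 words of its own, but the reads given to the shorter rows have little sequence of their own to rest on. The summed value is thus firmer than those of the shorter rows. In other GENCODE M21 genes occur 36.0% of the words of NR_027651, 58.0% of those of NR_027652 and 8.97% of those of the long row. The TPM was computed on RefSeq rows instead, so whether Meg3 reads were assigned to other genes was not tested.

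Small RNA rows lie inside Meg3, Rian, Mirg and Gas5 on the same strand. The most abundant were snoRNAs. Such RNAs of the C/D type guide the methylation of other RNAs and are defined by a box C near the 5′ end and a box D near the 3′ end. They are shown here because they are released from the same primary transcripts whose levels are described above. The capitals mark TGATGA (box C) and CTGA (box D). The sequences are those of GENCODE M21 transcripts on the plus strand of GRCm38, at chr1:161038082-161038158 for Snord47, which lies in Gas5, and at chr12:109649617-109649688, chr12:109656345-109656416 and chr12:109654627-109654698 for DQ267100, DQ267102 and AF357355, which lie in Rian.
Snord47: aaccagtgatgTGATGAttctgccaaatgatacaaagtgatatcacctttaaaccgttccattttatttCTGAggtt
DQ267100: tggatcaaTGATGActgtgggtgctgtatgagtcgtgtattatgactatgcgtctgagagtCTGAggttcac
DQ267102: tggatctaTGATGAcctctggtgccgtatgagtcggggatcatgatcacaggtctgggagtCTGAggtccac
AF357355: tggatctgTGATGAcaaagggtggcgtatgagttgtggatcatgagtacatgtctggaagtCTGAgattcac

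The 3 snoRNAs of Rian shown have 72 bases each and were identical at 55 to 58 positions, or 76.4% to 80.6%. Rian holds 7 snoRNA rows, of which 6 were above 3 TPM and 1, AF357359, was listed at 0 in both pools. AF357426 was the highest at 363.4 and 319.3 TPM, a ratio of -0.19. DQ267100 was at 303.5 and 173.4 TPM, a ratio of -0.80, and AF357355 at 126.5 and 70.5 TPM, a ratio of -0.84. DQ267102 was nearly level at 107.5 and 108.4 TPM. Similar snoRNAs of one host gene thus had unlike ratios, and 2 of the 6 were higher and 4 lower in the KLH pool. The other rows were AF357425 at 49.3 and 112.0 TPM, a ratio of 1.17, and DQ267101 at 43.1 and 26.4 TPM, a ratio of -0.68. The sum of the 7 rows was 993.2 and 809.9 TPM, while Rian itself had a ratio of 0.09. Rows this short are measured poorly in a poly(A) library, and a read from the unspliced host can match them, so their values cannot be told apart from host precursor RNA.

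**Figure D4:**
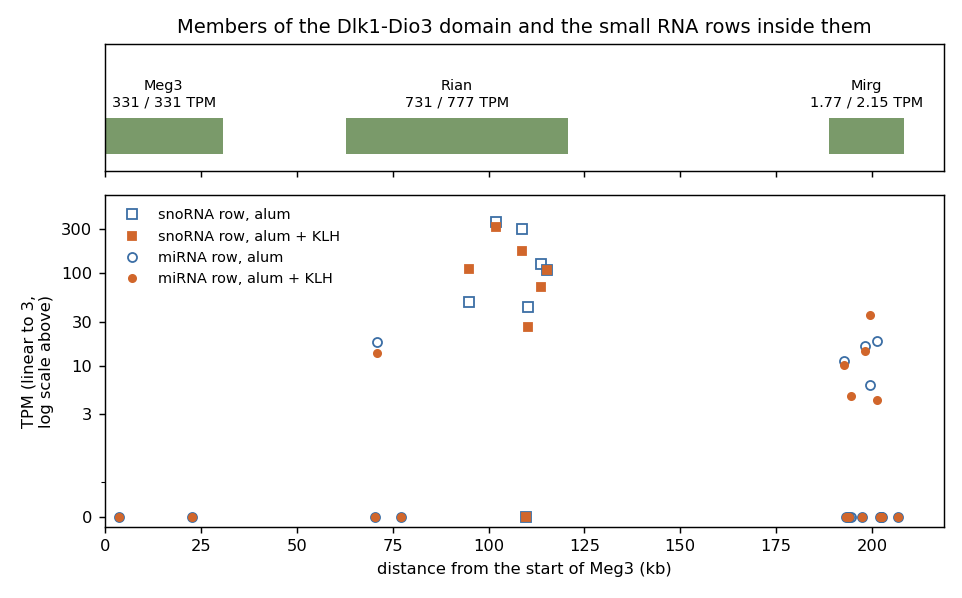
Top, spans of Meg3, Rian and Mirg by distance from the start of Meg3 (kb), with TPM in the alum and the KLH pool. Bottom, TPM of each snoRNA row (squares) and microRNA row (circles) inside them, open for alum and filled for alum + KLH, on an axis that is linear to 3 TPM and logarithmic above: the snoRNA rows inside Rian are the highest, and most microRNA rows are at 0.

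MicroRNA hairpin rows were mostly listed at 0. Of the 19 such rows inside Meg3 (2), Rian (3) and Mirg (14), 13 were listed at 0 in both pools and 6 were above 3 TPM in either pool, as the map of the domain shows. The share at 0 among all microRNA rows was not counted, so this count is no result about these hairpins. The 6 rows had 2 higher and 4 lower values in the KLH pool. Their mature microRNAs are given because Mirg is named for being a host of microRNAs and its own row was below the threshold. Capitals mark the seed, bases 2 to 8, which pairs with target mRNAs. The sequences are from RefSeq (GRCm38.p6), 5′ to 3′, all on the plus strand of chromosome 12.
mmu-miR-377-5p: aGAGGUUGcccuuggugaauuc
mmu-miR-377-3p: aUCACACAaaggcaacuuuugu
mmu-miR-496a-5p: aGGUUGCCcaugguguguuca
mmu-miR-496a-3p: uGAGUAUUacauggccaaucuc
mmu-miR-453: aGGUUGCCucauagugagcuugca
mmu-miR-541-5p: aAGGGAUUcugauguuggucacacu
mmu-miR-541-3p: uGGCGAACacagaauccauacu
mmu-miR-382-5p: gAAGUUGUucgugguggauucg
mmu-miR-382-3p: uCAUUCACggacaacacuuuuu
mmu-miR-1188-5p: uGGUGUGAgguugggccagga
mmu-miR-1188-3p: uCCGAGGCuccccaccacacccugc

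Of these 11 mature sequences, miR-496a-5p and miR-453 share the seed GGUUGCC and the rest have a seed of their own. The hairpin row Mir377 was at 6.16 and 35.3 TPM, Mir541 at 18.7 and 4.21 TPM, and Mir453 was listed at 0 in the alum pool and at 4.68 TPM in the other. Mir496a was at 16.3 and 14.6 TPM, Mir382 at 11.1 and 10.1 TPM, and Mir1188, which lies in Rian, at 17.9 and 13.6 TPM. Summed over the 19 rows the value was 70.3 and 82.6 TPM. A library of polyadenylated RNA does not measure mature microRNAs, so these rows describe reads over the hairpins only.

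Miat lies on the minus strand at chr5:112213228-112229395. The level was 41.2 and 41.1 TPM, a ratio of -0.0017, and 492 of the 500 genes of similar level were at least as far from 0. It exceeded 82.5% and 82.6% of all genes. Row NR_003718 held 99.9% and 97.2% of it. The other row, NR_033657, was at 0.0533 and 1.16 TPM, below the threshold in both pools. Of the 31-base words of the Miat transcript, 22.6% also occur in GENCODE M21 transcripts of other genes, which are not the RefSeq rows behind the TPM. Among 4 splicing factors known to bind it or to share its nuclear domain, Srsf1 (178.8 and 195.9 TPM), Qk (102.4 and 110.1 TPM) and Sf1 (33.0 and 31.3 TPM) were above 3 TPM, 2 with a ratio above 0 and 1 below, and Celf3 was at 2.94 and 2.04 TPM. Sf1 recognises the branch point of introns and Qk is an RNA-binding protein of glia and other cells.

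Snhg11, on the plus strand at chr2:158375638-158386145, was the highest of the 9 genes in the alum pool. Its single row was at 799.7 and 846.1 TPM, a ratio of 0.08, and it held rank 154 and 152 among all genes. In the alum pool it stood between Eif1, a translation initiation factor, at 807.3 TPM and Csnk1a1, a casein kinase, at 797.4 TPM. GENCODE M21 classes the gene as protein-coding and RefSeq as a long noncoding RNA. Its row therefore falls outside a count of noncoding rows although the gene is listed here.

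Gas5, on the plus strand at chr1:161034422-161038539, had levels of 117.2 and 107.5 TPM. The log2 ratio of -0.12 was the lowest of the 9 genes and lay within the SD of 0.13 over its neighbours, of which 114 of 500 were at least as far from 0. Gas5 is a snoRNA host whose spliced RNA is degraded during translation, and its row is paired with a transcript of 2556 bases that retains introns. The snoRNA Snord47 inside it was at 572.0 and 782.8 TPM, a ratio of 0.45, opposite in sign to that of its host. Snord47 was 4.88 times as high as Gas5 in the alum pool and 7.28 times in the KLH pool. The limits given for the short snoRNA rows of Rian hold for Snord47 too, so these values are no measure of relative abundance. In the Gas5 transcript 10.1% of the 31-base words also occur in other GENCODE M21 genes, all of them small RNA genes. Whether reads of Gas5 were assigned to RefSeq rows of such genes was not tested. Snord47 is not among these genes.

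The other snoRNA host genes were compared as a list. Of 18 genes, 15 were above 3 TPM, 9 with a ratio above 0 and 6 below, with a median of 0.07. Snhg14, the host of the Prader-Willi region, was at 152.2 and 177.3 TPM, Snhg1 at 144.8 and 132.6 TPM, and Snhg6 at 123.1 and 140.7 TPM, levels close to that of Gas5. These were the highest of the list, and the median level of the 18 genes was 11.8 and 11.9 TPM. The ratio ran from -0.46 for Snhg10 (10.8 and 7.54 TPM) to 0.28 for Snhg8 (5.22 and 6.55 TPM), and none was 1.5-fold apart.

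Pvt1 spans 340111 bases at chr15:62037986-62378096, on the plus strand, although its paired transcript has 1563 bases in 9 exons. It was at 18.3 and 20.6 TPM, a ratio of 0.16 beside an SD of 0.18 over its neighbours. Its neighbour Myc was at 21.4 and 15.4 TPM, a ratio of -0.46, opposite in sign to that of Pvt1. Among 14 genes beside the 9 loci, 9 were above 3 TPM, 3 with a ratio above 0 and 6 below, with a median of -0.01. Ralgapb, a subunit of a Ral GTPase-activating complex beside Snhg11, was the highest at 109.6 and 110.8 TPM. Wars, the tryptophanyl-tRNA synthetase gene near Meg3, was at 42.9 and 42.6 TPM.

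A list of 31 other well-known long or intermediate noncoding RNAs served as a comparison of level. Of these, 15 were above 3 TPM, 7 with a ratio above 0 and 8 below, and their median ratio was -0.04. The median level of the 31 genes was 1.05 TPM in the alum pool and 1.07 TPM in the KLH pool. Norad, listed under the older symbol 2900097C17Rik, was at 1312.7 and 1397.2 TPM and was higher than any of the 9 genes in both pools. Peg13, an imprinted RNA, was at 112.2 and 109.3 TPM, near Gas5. Bc1 was the only one of them at least 1.5-fold lower in the KLH pool, with a ratio of -1.27, and Hotairm1, a transcript of the HoxA cluster, had the highest ratio at 0.57 (13.4 and 20.5 TPM). Among the 2437 noncoding genes other than microRNA, snoRNA and small Cajal body RNA genes, Malat1 and Rian held ranks 4 and 5 in the alum pool and ranks 2 and 4 in the KLH pool. Snhg11, whose row is a coding one, would stand at rank 3 in both pools if added to these genes.

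**Figure D5:**
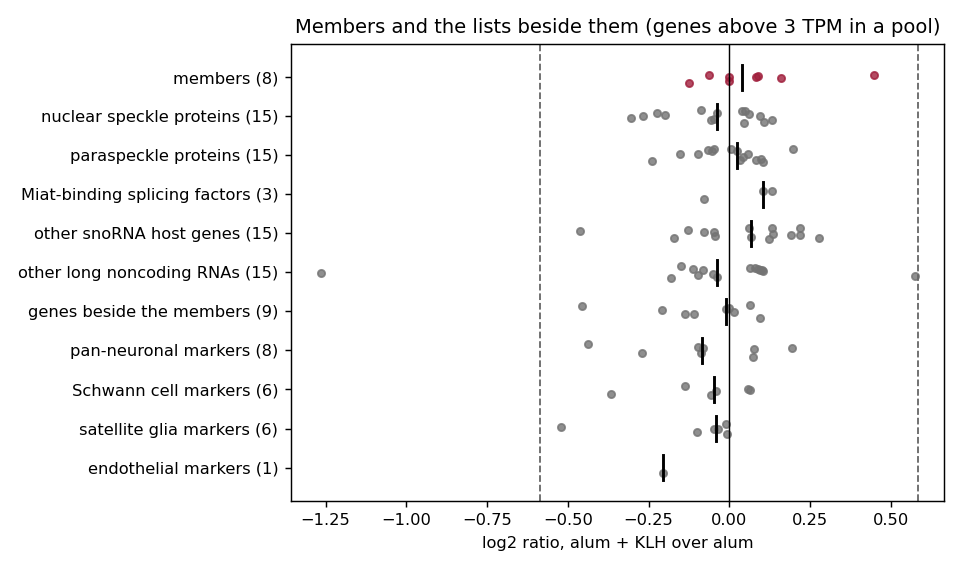
Log2 ratio of alum + KLH over alum for each expressed gene, for the long noncoding RNA genes (red) and 10 lists beside them (grey), with the median of each as a vertical bar, the number of genes in brackets and dashed lines at 1.5-fold. Medians of the lists of more than 1 gene lie between -0.08 and 0.10, and Bc1 (-1.27) is the only point beyond a dashed line.

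The plot of lists also shows the cell type markers beside which the long noncoding RNAs were measured. The 8 pan-neuronal genes had a median of -0.08, with Snap25, a synaptic fusion protein, at 4056.6 and 4278.5 TPM. Rbfox3, the NeuN antigen, had the lowest ratio at -0.44 (60.8 and 44.6 TPM) and Elavl4, a neuronal RNA-binding protein, the highest at 0.19. The 6 Schwann cell genes above 3 TPM had a median of -0.05, and all 6 satellite glia genes were below 0 with a median of -0.04, the lowest being Apoe, a lipid carrier, at 131.9 and 91.5 TPM. None of these genes was 1.5-fold apart. The part of the cell composition in the Malat1 difference was not tested.

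RefSeq promoter windows, 250 bases before to 50 bases after a start site on GRCm38.p6, were found for 7 of the 9 genes, 9 windows in all. The cAMP response element TGACGTCA, which reads the same on both strands, was in 2 of the 9, 1 of Gas5 and 1 of Meg3, and in 1.79% of 32851 windows of all genes. It began 46 bases before the start site in Gas5 and 57 bases before it in Meg3. TATAAA, searched on both strands, was in 1 of the 9 windows, that of Meg3, and in 13.6% of all, and GGGCGG, the GC box, was in 3 of 9 and 35.7%. The GC content of the windows ran from 47% in Malat1 to 73.7% in Gas5, and the Rian window held 0 CpG dinucleotides. Such matches describe the letters in these windows only.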

How the data were processed

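RNA was taken from 2 pools of DRG neurons, 10 mice each, with 1 library per group, and the authors made stranded poly(A) mRNA libraries for paired-end sequencing. The authors deposited TPM for each RefSeq transcript, computed with kallisto on the mm10 build. bcl2fastq and cutadapt are also named in the submitters' processing notes, and versions are not given in the sources used here. Poly(A) selection can lower transcripts without a tail, and short RNAs are measured poorly. TPM keeps no read counts, so the number of reads behind each value is not in the files and no interval was computed.

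TPM was summed per gene symbol. Ratios of alum + KLH over alum were taken as differences of log2(TPM + 1) and set beside the SD of the 500 genes closest in mean log2(TPM + 1). No test was made. The genes, lists and markers were chosen with earlier results of these data known. Older symbols were matched through RefSeq synonyms. The genes named were the 9 genes and their rows, the coding genes next above and below each in the alum-injected pool (given for 3 of them), the 3 highest and the extreme ratios of each list, and the 5 highest small RNA rows inside the genes. The remaining small RNA rows, Rn45s, Mir6236, Snord64 and Celf3, Rtl1, Begain, Dlk1 and Dio3 as whole short lists, were named after their values were seen. One gene that the rule names is not reported here. Positions and transcript sequences came from GENCODE M21 (GRCm38, the same assembly as mm10), which paired 12 of the 13 rows, the row of Rian being unpaired. Both Miat rows were paired with 1 transcript. Shared sequence was counted in 31-base words, in either orientation, among GENCODE M21 transcripts and not among the RefSeq rows behind the TPM. Small RNA rows were placed inside a gene by RefSeq coordinates.

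Alternatives were pseudocounts of 0.1 and 0.5 TPM, thresholds of 1 and 10 TPM or none, division by the median ratio between pools (0.987), values relative to Hprt, the highest row of each gene, removal of small RNA rows, noncoding genes only and the sum without Malat1. Removal of Rn45s, Mir6236 and Bc1 as well was added after seeing the data. Calculations used Python 3.11.15, numpy 2.4.6 and pandas 2.3.3, with plots by matplotlib 3.10.9. The step that calls genes past 1.5-fold was run on simulated data with 200 genes set 4-fold apart. Such genes lie far past the cut, so this checked the code of that step only.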

Additional observations from a re-analysis of the deposited data

How the results depend on the processing

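With 1 library per pool no error between mice is known, and the files do not give the reads behind a value. No paired analysis was possible because each group has a single library. The count of the 9 genes above the threshold was 8 in both pools, and 9 at a threshold of 1 TPM or with no filter. The count at least 1.5-fold apart was 0 in every setting. All 63 alternative log2 ratios of the 9 genes moved by less than the SD of their 500 neighbours. The ratio of Malat1 lay between 0.36 and 0.47. The median ratio of the genes above the threshold, 0.04, was -0.04 relative to Hprt and 0.08 at a threshold of 1 TPM or with no filter. Relative to Hprt the median of all genes shifted to -0.10, and Snhg11 changed sign to -0.0034. Meg3 (-0.09 to 0.02) and Miat (-0.08 to 0.02) lay on either side of 0. Without Malat1 the sum was 2113.5 TPM with alum and 2195.7 TPM with alum + KLH. The median share of genes exceeded was 92.3% and 91.7%, and among noncoding genes only 98.5% and 98.4%. These values differ in the genes compared with, while the levels of the 9 genes are the same.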
